A study of Mus musculus with 12 samples.

Results

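Rhabdoid tumors that grew inside the skull were compared with rhabdoid tumors of the orbit and face in mice that lack Smarcb1 in the neural crest. The intracranial side held 5 of the 12 tumors sequenced, those whose location label was Meninges (3 tumors), Vestibular N (1 tumor) or Trigeminal N (1 tumor). The orbit and face side held the other 7, labelled Retro-orbital (4 tumors) or Cheek (3 tumors). The location label alone placed a tumor on its side, and no tumor was left out.

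All 12 tumors arose in P0-CreC;Smarcb1flox/flox mice on an FVB/N background, so both sides carry the same homozygous conditional deletion and no untreated or normal tissue is in the comparison. The P0 promoter drives Cre recombinase in early neural crest cells and the Schwann cell lineage, and host cells of each site keep Smarcb1. The ages of the mice with sequenced tumors are not given in the sources used here. The authors isolated RNA from frozen tumors, removed ribosomal RNA, prepared stranded libraries, ran them as a single pool, and deposited RPKM values (read numbers scaled to transcript length and to the total of the library).

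Smarcb1 encodes a core subunit of the SWI/SNF chromatin remodelling complex, and its loss defines rhabdoid tumors. The cranial neural crest gives rise to much of the facial skeleton and connective tissue, to part of the meninges, and to the Schwann cells of the cranial nerves. Tumors at these sites therefore arise from a shared embryonic source but grow in contact with different host tissues, brain and leptomeninges inside the skull, and muscle, fat and glands in the orbit and cheek.

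The fragment total behind the values, estimated from what 1 fragment is worth, was 17800557 to 28411473 in the intracranial tumors and 13206168 to 57128422 in the orbit and face tumors. These totals vary more between tumors than the range of read numbers that the paper gives. Retro-orbital tumor 3 had the highest total and the lowest share of values that came out whole, 43.9%. Fragment numbers below rest on these estimates. Smarcb1 itself was still detected, at 1.70 to 6.31 RPKM in the intracranial tumors and 2.90 to 6.0 RPKM in the orbit and face tumors, values that cover the whole transcript and also the host cells. The first part of the tumor identifier was shared by retro-orbital tumor 3 and the trigeminal tumor, by cheek tumor 1 and meninges tumor 1, and by cheek tumors 2 and 3, and whether a shared identifier means the same mouse is not stated. All 4 Y-linked genes of a fixed list reached 1 RPKM in 3 of the 5 intracranial and 4 of the 7 orbit and face tumors, and stayed below it in the others. Cheek tumors 2 and 3 stood apart as the most alike pair, with a distance (1 minus Pearson r) of 0.0359. Their fragment numbers, worked out from RPKM, differed by more than counting error (chi-square of 22.0 per degree of freedom over 1739 genes), which does not show whether they are separate tumors. They are labelled as separate tumors and were kept so, and the count with their mean as 1 tumor is given with the calls. The p-values over tumors count tumors with a shared identifier as independent.

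Over the 5000 most variable genes, tumors of the 2 sides were on average further apart than tumors of the same side. The mean distance was 0.360 over the 35 pairs that cross sides, 0.246 over the 10 intracranial pairs and 0.325 over the 21 orbit and face pairs. The mean between minus the mean within sides was 0.0606 (exact two-sided permutation test over all 792 ways to label 5 of 12 tumors, p = 0.0227). The p-value rose to 0.0667 in the exact test without meninges tumor 3 and to 0.0576 without the vestibular tumor.

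The sides were not separate clusters. The nearest neighbour of a tumor was on its own side for 8 of 12 tumors. Among the intracranial tumors, meninges tumor 3 and the trigeminal tumor were the closest pair, at 0.146. Retro-orbital tumor 3 and cheek tumor 1 were both nearest to the trigeminal tumor, at 0.293 and 0.230, and retro-orbital tumor 4 and meninges tumor 2 were nearest to each other, at 0.210. The spread within the orbit and face was wide, with distances up to 0.493.

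**Figure D1:**
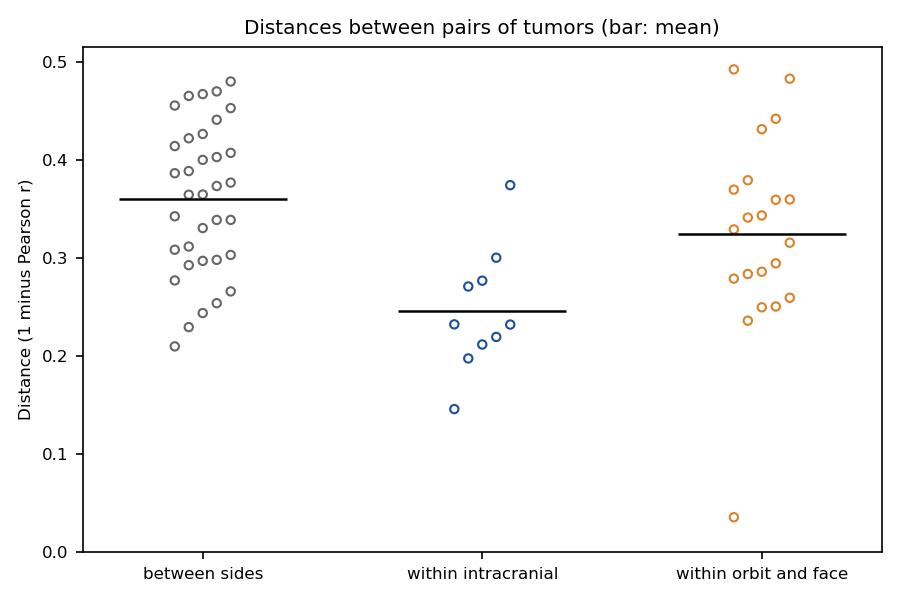
Distance (1 minus Pearson r over the 5000 most variable genes) for each pair of tumors, with a bar at the mean. The intracranial pairs have the lowest mean, 0.246, the pairs that cross sides average 0.360, and the lowest point of the orbit and face pairs is cheek tumors 2 and 3.

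The genes called higher in the intracranial tumors included synaptic and secretory vesicle genes (Syp, Cplx1, Chga) and neuronal cytoskeleton genes (Stmn3, Kif5a), and those called lower included the matrix genes Thbs4 and Cilp and the transporters Aqp1 and Abcc1. These groupings were made after the calls were seen. Of 15043 genes that reached 1 RPKM in 3 tumors or more, limma with Benjamini-Hochberg adjustment called 20 higher (0.133% of genes tested) and 9 lower (0.0598%) in the intracranial tumors, at an adjusted p under 0.05. Atp2b2, Chga, Cplx1, Ly6h, Ppp2r2c, Resp18, Stmn4 and Zfp804b reached 1 RPKM in no orbit and face tumor. They passed the filter through intracranial tumors alone, and Cilp passed it through orbit and face tumors alone. The filter therefore favoured the sign of these differences. An unadjusted p under 0.05 was found for 2198 genes. Differences are intracranial minus orbit and face means of log2(RPKM + 1), on which the change of a weakly expressed gene appears smaller than it is. The median difference over all genes tested was 0.13, and all 29 called genes kept their direction when each tumor was centred on its median, although 8 genes were then called higher and 6 lower. After quantile normalization the median difference over all genes was 0.012, so counts of differences above 0 depend on scaling.

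The number of calls depended on single tumors. Without retro-orbital tumor 3 it was 187, with all 29 genes among them. It fell to 5 without retro-orbital tumor 1, cheek tumor 2 or cheek tumor 3, to 6 without meninges tumor 3, to 7 without meninges tumor 1 and to 9 without the trigeminal tumor. With cheek tumors 2 and 3 averaged into 1 it was 5, and with the identifier as a block it was 112. With the identifier as a fixed term, a comparison within the 2 identifiers that occur on both sides, limma called 0 genes, 1435 had an unadjusted p under 0.05 and all 29 genes kept their direction, on 2 residual degrees of freedom. Under the block 28 of the 29 genes were called, Tubb4a was not (adjusted p = 0.0577), and of the genes named here Dpt (0.0207), Hhip (0.0425), Col6a1 (0.0426), S100a6 (0.0431) and Mfsd2a (0.0431) were called in addition. Plscr5, Stmn3, Thbs4, Cilp and Aqp1 passed the threshold whichever tumor was left out. All 29 genes kept their direction in each of these fits. The sides of these genes do not overlap, so neither leaving out a tumor nor the fixed term could reverse a direction.

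**Figure D2:**
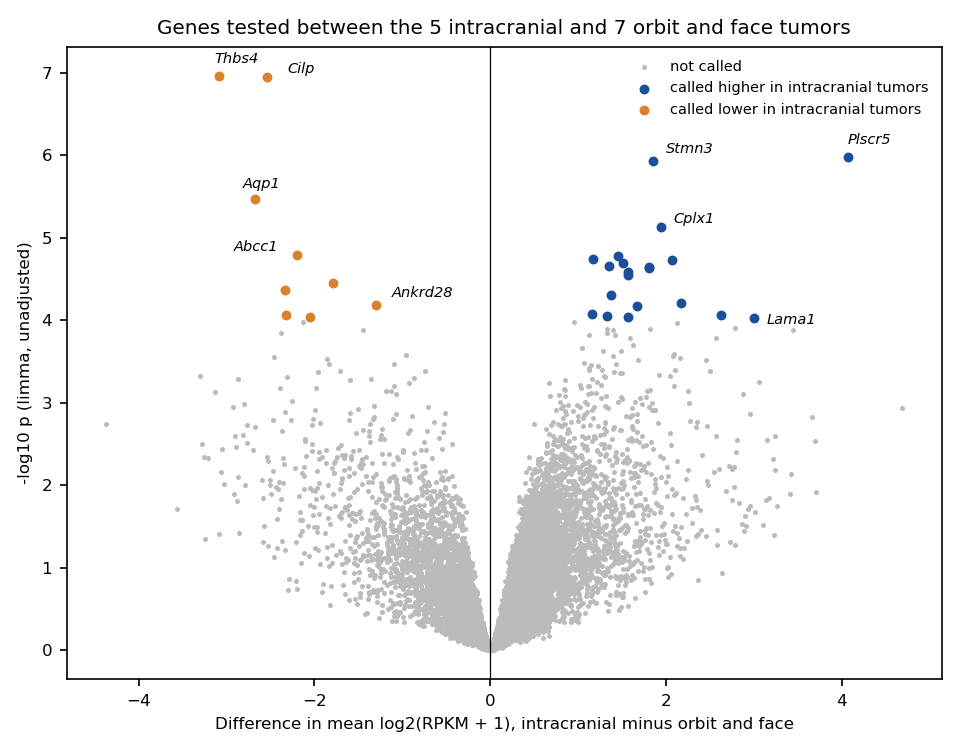
Each point is a gene tested, with the difference in mean log2(RPKM + 1) on the horizontal axis and -log10 of the unadjusted limma p on the vertical axis. Thbs4 and Cilp at the upper left have the smallest p-values, Plscr5 at the upper right has a difference of 4.07, and 20 genes are called higher against 9 called lower.

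For all 29 called genes the lowest tumor of the higher side lay above the highest tumor of the lower side. Such a gap was found in 163 of all genes tested, 116 of them higher (0.771%) and 47 lower (0.312%) in the intracranial tumors. The split between directions depended on scaling. It was 79 higher and 84 lower after quantile normalization, and 72 and 71 with each tumor centred on its median. Since the samples are bulk tissue, fewer cells of a type and less RNA per cell cannot be told apart.

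**Figure D3:**
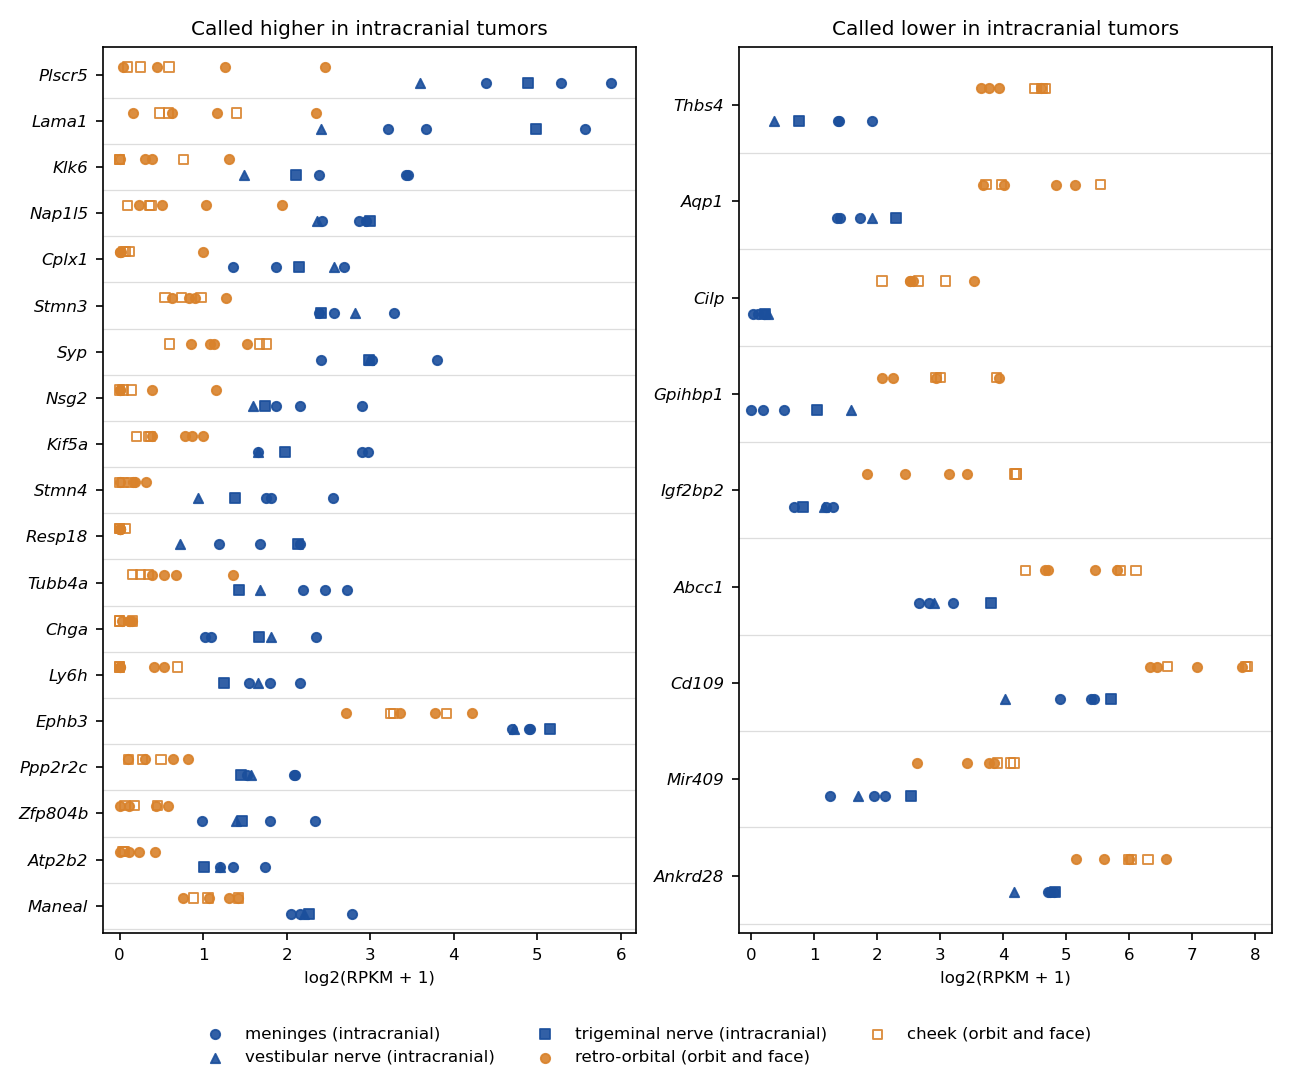
Log2(RPKM + 1) of the genes called higher that are described in the text and of the 9 genes called lower, with 1 point per tumor, intracranial tumors in blue and orbit and face tumors in orange. No gene shown has overlapping sides, and a retro-orbital tumor lies nearest to the intracranial points for Plscr5, Lama1 and Nap1l5.

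Plscr5, a member of the phospholipid scramblase family at chr9:92192936-92209772 (GRCm38, plus strand), had the largest difference of the called genes. Its level was 19.9, 37.8 and 58.1 RPKM in the 3 meninges tumors, 11.1 in the vestibular tumor and 28.5 in the trigeminal tumor. In the orbit and face tumors the lowest value was 0.0305, the median 0.364 and the highest 4.51 RPKM. Every intracranial tumor was above every orbit and face tumor, and retro-orbital tumor 3 was the highest of the latter. The difference was 4.07 ± 0.47 on the log2 scale (SE, n = 5 and 7, limma adjusted p = 0.00443). The adjusted p was under 0.05 in 26 of 29 alternatives, and the exceptions were the vestibular and trigeminal tumors against the orbit and face (0.287), the retro-orbital tumors as the only orbit and face tumors (0.146) and the identifier as a fixed term (0.312).

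Lama1, which encodes the alpha chain of laminin 111 in basement membranes of the early embryo and the pial surface, followed. It reached 46.5, 8.25 and 11.7 RPKM in the meninges tumors, 4.30 in the vestibular tumor and 30.6 in the trigeminal tumor. The orbit and face tumors ran from 0.118 through a median of 0.539 to 4.10 RPKM. The vestibular tumor and retro-orbital tumor 3 lay next to each other at the border between the sides. The difference was 3.0 ± 0.54 (SE, limma adjusted p = 0.0486), close to the threshold, and the adjusted p ranged from 0.00134 to 0.398 and was under 0.05 in 8 of 29 alternatives.

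Several called genes act in the neuronal cytoskeleton. Stmn3 and Stmn4 encode stathmin proteins that bind tubulin in neurons, Tubb4a a beta-tubulin of brain, and Kif5a a neuronal kinesin motor. Stmn3 at chr2:181306459-181314500 was at 4.93, 4.22 and 8.70 RPKM in the meninges tumors, 6.07 in the vestibular tumor and 4.32 in the trigeminal tumor. The 7 orbit and face tumors held 0.459 to 1.42 RPKM, with a median of 0.780. The lowest intracranial tumor was well above the highest orbit and face tumor, and the difference was 1.85 ± 0.22 (SE, limma adjusted p = 0.00443). Stmn4 (1.57 ± 0.25, SE, limma adjusted p = 0.0262), Kif5a (1.67 ± 0.29, adjusted p = 0.0454) and Tubb4a (1.57 ± 0.28, adjusted p = 0.0486) were also called. Tubb4a belongs to a family of close paralogs, so its reads may be split among them.

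Genes of synaptic and secretory vesicles were called alongside these. Syp, the synaptic vesicle protein synaptophysin, was at 7.12, 4.32 and 12.9 RPKM in the meninges tumors and at 6.89 and 6.95 in the vestibular and trigeminal tumors. In the orbit and face tumors Syp ran from 0.512 through 1.19 to 2.38 RPKM, with cheek tumors 2 and 3 the highest. The difference was 1.81 ± 0.28 (SE, limma adjusted p = 0.025). Cplx1, a complexin that clamps vesicle fusion, was at 1.56 to 5.41 RPKM in the intracranial tumors. It was listed at 0 in retro-orbital tumors 1 and 2 and reached 0.990 RPKM in retro-orbital tumor 3, with a median of 0.0345 on that side. Its difference was 1.95 ± 0.27 (SE, limma adjusted p = 0.0186).

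Chga, the chromogranin A precursor of dense-core vesicles, was at 1.14, 1.03 and 4.12 RPKM in the meninges tumors, 2.51 in the vestibular tumor and 2.18 in the trigeminal tumor. No orbit and face tumor exceeded 0.112 RPKM, which was 9 fragments at most. Resp18, a neuroendocrine secretory protein, was listed at 0 in 6 of the 7 orbit and face tumors and at 0.0497 RPKM, equal to 1 fragment, in cheek tumor 1. In the intracranial tumors Resp18 was at 0.644 to 3.48 RPKM, or 13 to 65 fragments. Nsg2, an endosomal protein of neurons, was at 2.03 to 6.47 RPKM intracranially, and 3 orbit and face tumors were at 0 with 1.23 RPKM in retro-orbital tumor 3. The differences were 1.51 ± 0.23 for Chga, 1.57 ± 0.25 for Resp18 and 1.81 ± 0.28 for Nsg2 (SE, limma adjusted p = 0.025, 0.0269 and 0.025).

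Of the remaining called genes with mostly neural expression, Atp2b2 encodes a plasma membrane calcium pump, Ppp2r2c a regulatory subunit of protein phosphatase 2A in brain, and Ly6h a GPI-anchored protein that binds nicotinic receptors. Their medians were 1.3, 1.97 and 2.16 RPKM in the intracranial tumors against 0.0391, 0.238 and 0 RPKM in the orbit and face tumors. Nap1l5, an imprinted nucleosome assembly gene, was at 4.13 to 7.01 RPKM against 0.0647 to 2.84 RPKM. Retro-orbital tumor 3 was the highest of the latter. Its difference was 2.07 ± 0.31 (SE, limma adjusted p = 0.025).

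Klk6, a secreted kallikrein protease that oligodendrocytes express, was at 1.80 to 9.98 RPKM against 0 to 1.48 RPKM, a difference of 2.18 ± 0.37 (SE, limma adjusted p = 0.0454). Klk6 lies in a cluster of related kallikrein genes.

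Ephb3, a receptor tyrosine kinase for membrane-bound ephrin-B ligands, was at 24.9, 28.7 and 29.2 RPKM in the meninges tumors, 25.2 in the vestibular tumor and 34.5 in the trigeminal tumor, against 5.56 to 17.6 RPKM (median 9.19) in the orbit and face. The intracranial tumors differed little among themselves, and retro-orbital tumor 4 was the highest of the others. The difference was 1.38 ± 0.23 (SE, limma adjusted p = 0.0391). Zfp804b, a zinc finger gene, and Maneal, an endomannosidase-like gene, were also called, with differences of 1.33 ± 0.24 and 1.16 ± 0.21 (SE, limma adjusted p = 0.0486 for both).

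Retro-orbital tumor 3 was the highest orbit and face tumor for 12 of the 20 genes called higher, cheek tumor 1 for 4, retro-orbital tumor 4 for 3 and cheek tumor 3 for 1. Among the intracranial tumors meninges tumor 3 was the highest for 13 of the 20 genes and the vestibular tumor the lowest for 8.

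Thbs4 and Cilp had the smallest p-values of all genes, and both encode secreted matrix proteins. Thbs4, a thrombospondin of tendon and muscle attachment at chr13:92751590-92794818 (minus strand), was at 1.63, 2.77 and 1.58 RPKM in the meninges tumors, 0.275 in the vestibular tumor and 0.693 in the trigeminal tumor. In the orbit and face tumors it was at 11.5 RPKM in the lowest, 21.6 at the median and 24.4 in the highest. The means were 1.39 ± 0.964 and 18.7 ± 5.70 RPKM (SD, n = 5 and 7), and neither retro-orbital nor cheek tumors came near the intracranial range. Thbs4 fell by 3.09 on the log2 scale (SE 0.29, limma adjusted p = 0.000852). The adjusted p was under 0.05 in 27 of 29 alternatives, and the exceptions were the comparison with retro-orbital tumors alone (0.0706) and the identifier as a fixed term (0.234).

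Cilp, the cartilage intermediate layer protein of cartilage and other connective tissue at chr9:65265180-65280605, was at 0.0788, 0.0183 and 0.149 RPKM in the meninges tumors, 0.195 in the vestibular tumor and 0.159 in the trigeminal tumor. These values rest on 2 to 23 fragments per tumor. In the orbit and face it was at 3.20 to 10.5 RPKM with a median of 4.91, from 290 to 1184 fragments. The gap between the sides was wide for every tumor. Cilp fell by 2.54 on the log2 scale (SE 0.24, limma adjusted p = 0.000852).

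Aqp1, a water channel of capillary endothelium, choroid plexus and some sensory neurons, was at 1.65, 2.30 and 1.57 RPKM in the meninges tumors, 2.77 in the vestibular tumor and 3.88 in the trigeminal tumor. The orbit and face tumors held 11.8 to 45.7 RPKM (median 15.2), with cheek tumor 1 the highest. It fell by 2.68 on the log2 scale (SE 0.34, limma adjusted p = 0.0101). Gpihbp1, the protein that carries lipoprotein lipase across capillary endothelium in fat and muscle, was at 0 to 1.99 RPKM intracranially and 3.20 to 14.2 RPKM in the orbit and face. It was listed at 0 in meninges tumor 1, and fell by 2.33 on the log2 scale (SE 0.39, limma adjusted p = 0.0357).

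Abcc1, the efflux transporter known as multidrug resistance-associated protein 1, was at 5.31, 6.06 and 8.19 RPKM in the meninges tumors, 6.48 in the vestibular tumor and 12.9 in the trigeminal tumor, against 19.4 to 68.0 RPKM (median 42.8). Cd109, a GPI-anchored co-receptor that restrains TGF-beta signalling, had the highest orbit and face levels of the called genes, at 15.3 to 51.2 RPKM intracranially and 79.6 to 234 RPKM in the orbit and face. Cheek tumors 2 and 3 were at the upper end for both genes. On the log2 scale Abcc1 fell by 2.20 (SE 0.33, limma adjusted p = 0.025) and Cd109 fell by 2.05 (SE 0.36, limma adjusted p = 0.0486).

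Igf2bp2, which encodes an RNA-binding protein that binds Igf2 and other messenger RNAs, was at 0.605 to 1.46 RPKM intracranially. It was at 2.56 to 9.71 RPKM in the retro-orbital tumors and at 17.4, 17.2 and 17.5 RPKM in the cheek tumors, which therefore formed the upper end. Igf2bp2 fell by 2.32 on the log2 scale (SE 0.41, limma adjusted p = 0.0486). Ankrd28, a regulatory subunit of protein phosphatase 6, was at 17.0 to 27.1 RPKM against 34.5 to 95.3 RPKM, and fell by 1.31 (SE 0.23, limma adjusted p = 0.0454).

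Mir409, a microRNA gene of the imprinted Dlk1-Dio3 cluster, was the only microRNA gene called. Its 2 mature products in RefSeq (GRCm38.p6) are shown with the seed, bases 2 to 8, in capitals, since this locus is the non-coding one among the called genes.
mmu-miR-409-5p: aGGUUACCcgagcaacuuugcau
mmu-miR-409-3p: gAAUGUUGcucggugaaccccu
The arms have different seeds. The hairpin lies at chr12:109743158-109743236 (plus strand), inside the annotated span of the host gene Mirg. Libraries of longer fragments measure the primary transcript at the locus and not the mature arms.

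Mir409 was at 1.38, 3.37 and 2.84 RPKM in the meninges tumors, 2.23 in the vestibular tumor and 4.78 in the trigeminal tumor, and at 5.17 to 17.0 RPKM (median 13.5) in the orbit and face tumors. The counts behind these values were 3 to 8 fragments intracranially and 12 to 44 in the orbit and face. Mir409 fell by 1.79 on the log2 scale (SE 0.29, limma adjusted p = 0.0315). Other genes of the cluster, chosen after their values were seen, were not called. Mirg, the host transcript, was at 14.8 to 31.4 RPKM against 12.0 to 99.2 RPKM, with a difference of -1.09 ± 0.42 (SE, limma adjusted p = 0.273). Mir134, a second hairpin of the cluster, had a difference of -1.37 ± 0.37 (adjusted p = 0.162), and the long non-coding RNAs Rian and Meg3 had differences of -0.93 ± 0.47 and -0.43 ± 0.34 (limma adjusted p = 0.373 and 0.564). Retro-orbital tumor 3 was low for Mirg, at 12.0 RPKM, and without it the adjusted p of Mirg was 0.0344 and of Mir134 0.0456. Neither passed with any other tumor left out, at adjusted p-values up to 0.469 and 0.326.

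S100a6, Dpt and Myof were next in order of p among the genes with lower intracranial levels and did not pass the threshold. S100a6, a calcium-binding protein abundant in fibroblasts and many tumors, was at 107 to 247 RPKM against 371 to 1405 RPKM. Dpt, the matrix protein dermatopontin, was at 0 to 0.558 RPKM against 0.832 to 4.67 RPKM, and Myof, a ferlin of membrane repair in muscle and endothelium, at 6.11 to 22.5 RPKM against 30.1 to 141 RPKM. None of the 3 had overlapping sides, but Dpt passed the filter through orbit and face tumors alone. Their limma adjusted p-values were 0.0502, 0.0525 and 0.0536, and all 3 passed without retro-orbital tumor 3, at 0.0127, 0.0214 and 0.0189. Each passed in 2 of the 12 fits that left out a tumor, and the adjusted p reached 0.159, 0.159 and 0.177 in the others.

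Most glial markers had a mean difference above 0, but the sides overlapped for most of them and no astrocyte or Schwann cell marker was called. Of 10 astrocyte markers tested, none was called, 8 had a difference above 0, and the median difference was 2.08 beside 0.13 over all genes. Gja1, the gap junction protein connexin 43, was at 31.2 to 124 RPKM intracranially and 37.2 to 219.5 RPKM in the orbit and face, a difference of -0.67 ± 0.49 (SE, limma adjusted p = 0.524). Gfap, the intermediate filament of astrocytes, was at 228, 65.1 and 260 RPKM in the meninges tumors, 26.3 in the vestibular tumor and 81.5 in the trigeminal tumor. In the orbit and face Gfap ran from 0.309 through a median of 0.589 to 128 RPKM, and the highest value was retro-orbital tumor 3. The sides overlapped only through that tumor, since the next highest, retro-orbital tumor 4, was at 13.3 RPKM.

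The difference of Gfap was 4.69 ± 1.13 (SE, limma adjusted p = 0.12), and without retro-orbital tumor 3 it was 5.54 with an adjusted p of 0.00622. Slc1a3, the astroglial glutamate transporter GLAST, was at 21.1 to 77.6 RPKM against 0.606 to 29.3 RPKM, a difference of 3.45 ± 0.64 (SE, limma adjusted p = 0.0525). Without retro-orbital tumor 3 the adjusted p of Slc1a3 was 0.00228 and that of Slc1a2, its relative GLT-1, was 0.0118. Gfap, Slc1a3 and Slc1a2 each passed in only 1 of the 12 fits that left out a tumor. In the others the adjusted p reached 0.305 for Gfap, 0.175 for Slc1a3 and 0.367 for Slc1a2.

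Of 8 oligodendrocyte markers tested, all 8 had a difference above 0, with a median of 1.28. Mag and Mobp were among the markers whose sides did not overlap, and neither of these was called. Of all genes tested, 0.771% had such a gap in this direction. Mag, a myelin-associated adhesion protein, was at 1.56 to 7.06 RPKM against 0.187 to 1.46 RPKM (difference 1.63 ± 0.32, SE, limma adjusted p = 0.0662). Mobp, a protein of compact central myelin, was at 0.649 to 3.59 RPKM against 0 to 0.308 RPKM (1.14 ± 0.24, adjusted p = 0.0844). Mobp passed the filter through intracranial tumors alone, which favoured this sign. The summed level of all 10 listed markers was 30.3 to 142 RPKM intracranially and 14.7 to 42.2 RPKM in the orbit and face.

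Among Schwann cell genes, 0 of 12 tested were called, 10 differences were above 0 and the median was 0.69. Fabp7, a fatty acid binding protein of radial glia and Schwann cell precursors, was at 44.8, 2.59 and 44.4 RPKM in the meninges tumors, 10.2 in the vestibular tumor and 14.9 in the trigeminal tumor, against 0.0637 to 7.86 RPKM (3.06 ± 0.67, SE, limma adjusted p = 0.0949). S100b, a calcium-binding protein shared by astrocytes and Schwann cells, had a difference of 2.26 ± 0.53 (adjusted p = 0.118).

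The neuron list did not move as a whole with the called neuronal genes. Of 14 markers tested 1 (Syp) was called, 11 differences were above 0 and the median was 0.78, but the summed level of the list was 88.6 to 152 RPKM intracranially and 44.0 to 572 RPKM in the orbit and face. Nefl, the neurofilament light chain, reached 412 and 335 RPKM in cheek tumors 2 and 3 and 1.49 to 12.5 RPKM elsewhere. Map2, a dendritic microtubule protein, was at 5.80 to 14.1 RPKM intracranially and 0.155 to 6.05 RPKM in the orbit and face (1.59 ± 0.50, SE, limma adjusted p = 0.2). Camk2a, a kinase of excitatory neurons, was at 0.374 to 6.29 RPKM against 0.0758 to 1.22 RPKM (1.25 ± 0.36, limma adjusted p = 0.184).

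Genes of the blood-brain barrier endothelium overlapped between the sides, with summed levels of 35.0 to 181 RPKM intracranially and 27.6 to 164 RPKM in the orbit and face. All 5 tested had a difference above 0, 4 of them above the median of all genes. Their median was 0.60 and none was called. Slc2a1, the member with the highest level, was at 18.7 to 142 RPKM against 17.9 to 146 RPKM (0.02 ± 0.56, SE, limma adjusted p = 0.993). Mfsd2a, a lipid transporter of brain capillaries, was at 1.59 to 7.95 RPKM against 0.0687 to 3.77 RPKM (1.84 ± 0.44, SE, limma adjusted p = 0.12), and the highest orbit and face tumor was retro-orbital tumor 3. Without that tumor the adjusted p was 0.0149 for Mfsd2a and for Slco1c1, a thyroid hormone transporter of the barrier. Neither passed with any other tumor left out, at adjusted p-values up to 0.309 and 0.407. The general endothelial list had a median difference of -0.07 over 8 genes.

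Summed glial markers overlapped between the sides. The astrocyte list summed to 235 to 635 RPKM in the intracranial tumors and 72.3 to 440 RPKM in the orbit and face. Besides retro-orbital tumor 3 at 440 RPKM, the 3 cheek tumors, at 245, 311 and 294 RPKM, lay within the intracranial range. No astrocyte, oligodendrocyte or neuron marker was at 0 in all 12 tumors. The part of host tissue in the called differences was not tested.

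**Figure D4:**
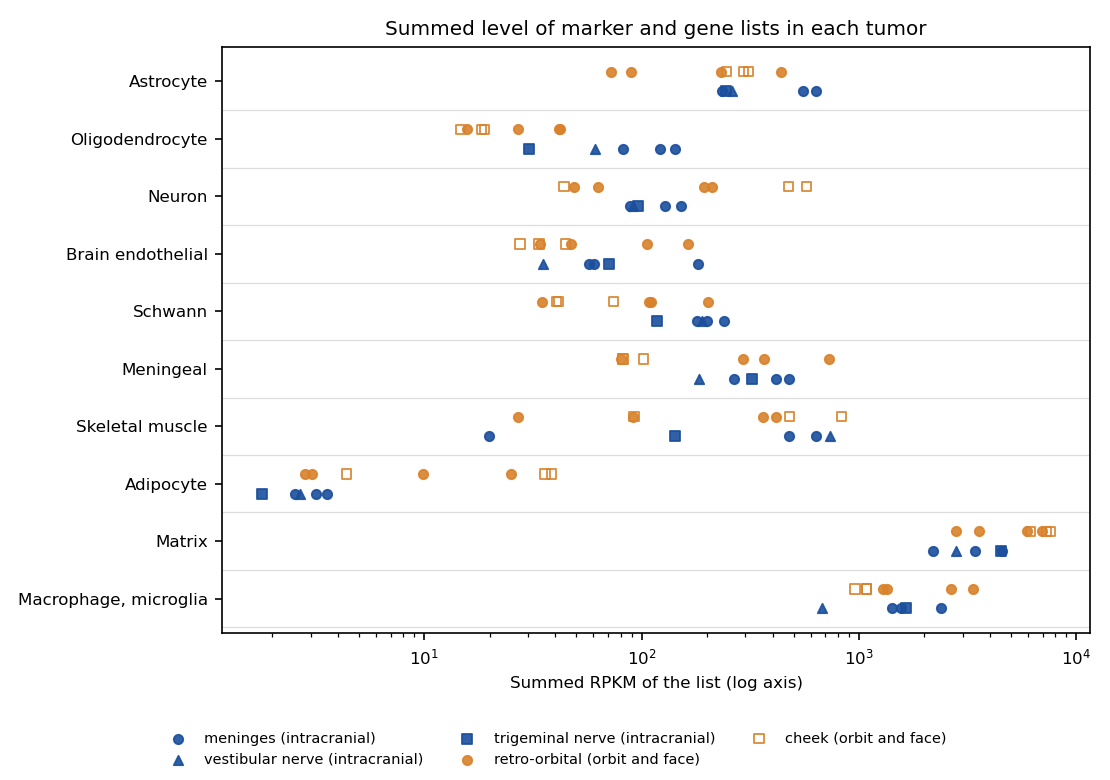
Summed RPKM of 10 gene lists in each tumor on a log axis, intracranial tumors in blue and orbit and face tumors in orange. Oligodendrocyte markers sum to 30.3 to 142 RPKM intracranially against 14.7 to 42.2 RPKM, adipocyte markers to 1.79 to 3.56 RPKM against 2.81 to 38.5 RPKM, and skeletal muscle markers overlap widely.

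Contractile genes of skeletal muscle were split. Of 19 muscle genes tested none was called, 12 had a difference below 0 and 7 above, and the median was -1.41. Neb, the giant thin filament protein nebulin, was at 0.362 to 0.722 RPKM in the intracranial tumors and 1.09 to 16.9 RPKM in the orbit and face, with no overlap (difference -2.03 ± 0.52, SE, limma adjusted p = 0.137). Tnnc2, the troponin C of fast fibers, was at 0.410 to 0.865 RPKM against 0.510 to 47.9 RPKM, and Ttn, the sarcomere spring titin, at 0.250 to 0.601 RPKM against 0.540 to 11.9 RPKM. Neb, Tnnc2 and Ttn passed the filter through orbit and face tumors alone, which favoured a difference below 0. Retro-orbital tumor 3 and cheek tumor 1 had the lowest orbit and face levels of Tnnc2 and Ttn.

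Myh8, the perinatal myosin heavy chain, went the other way, at 462 RPKM in the vestibular tumor, 98.1 in meninges tumor 3, 29.5 in the trigeminal tumor, and 0.179 to 8.36 RPKM in the remaining 9 tumors (3.26 ± 1.2, SE, limma adjusted p = 0.254). The summed muscle list overlapped, at 19.9 to 734 RPKM and 27.1 to 830 RPKM.

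Most fat and matrix genes tested had a mean difference below 0, but none was called and the summed levels of both lists overlapped. Fabp4, a fatty acid binding protein of adipocytes and capillary endothelium, was at 1.03 to 1.32 RPKM in all 5 intracranial tumors and 1.53 to 25.4 RPKM in the orbit and face (-1.97 ± 0.61, SE, limma adjusted p = 0.199). All 3 adipocyte genes tested had a difference below 0, with a median of -0.95. Of these, Cfd passed the filter through orbit and face tumors alone, which favoured this sign. Of 22 matrix genes none was called, and 17 had a difference below 0 with a median of -0.60. The matrix list summed to 2183 to 4574 RPKM intracranially and 2786 to 7602 RPKM in the orbit and face. Col3a1, the member with the highest mean, had a difference of -0.13 ± 0.54 (SE, limma adjusted p = 0.928). Col6a1 and Col6a2, which encode chains of collagen VI, had differences of -2.81 ± 0.66 and -2.11 ± 0.57 (SE, limma adjusted p = 0.119 and 0.158). Col6a1 was at 9.94 to 30.3 RPKM in 4 intracranial tumors and 169 in meninges tumor 2, against 98.4 to 577 RPKM, and without meninges tumor 2 its adjusted p was 0.0402. Col6a1 passed with no other tumor left out, at an adjusted p up to 0.268. Bgn, the small proteoglycan biglycan, was at 2.55 to 25.0 RPKM against 11.1 to 51.7 RPKM.

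Hoxd8, Hoxd9 and Hoxd10 were highest in the meninges tumors and low in the vestibular tumor. None of 17 genes of the Hox clusters was called. All 17 differences were above 0 with a median of 0.91, but the filter favoured this sign for some of them. Hoxd3, Hoxd4, Hoxd9, Hoxd10 and Hoxd11 reached 1 RPKM in no orbit and face tumor and passed the filter through intracranial tumors alone. Hox genes encode the transcription factors that set position along the body axis, and cranial crest of the face is normally free of them. Hoxc6, with the highest mean of the list, was at 31.9 RPKM in cheek tumor 1 and 13.7 in retro-orbital tumor 2. Its sides overlapped, at 0.177 to 15.2 RPKM intracranially and 0 to 31.9 RPKM in the orbit and face (0.82 ± 0.94, SE, limma adjusted p = 0.705). Hoxb2 was at 17.1 RPKM in meninges tumor 1 and at 0 to 1.32 RPKM in all other tumors. Hoxd9 at chr2:74697727-74700208 was at 18.7, 11.7 and 3.40 RPKM in the meninges tumors and 2.54 RPKM in the trigeminal tumor, but at 0.117 RPKM in the vestibular tumor. The orbit and face tumors held 0 to 0.859 RPKM.

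The neighbouring genes Hoxd8 and Hoxd10 had the same order, with the meninges tumors on top (7.65 to 25.2 and 5.74 to 14.6 RPKM). The vestibular tumor was below all orbit and face tumors for Hoxd8, at 0.424 against 0.456 to 2.93 RPKM, and within their range for Hoxd10. The differences were 2.01 ± 0.61 for Hoxd8, 2.06 ± 0.57 for Hoxd9 and 1.97 ± 0.58 for Hoxd10 (SE, limma adjusted p = 0.195, 0.168 and 0.186). Without the vestibular tumor the adjusted p was 0.0437 for Hoxd8 and 0.0421 for Hoxd9. Neither passed with any other tumor left out, at adjusted p-values up to 0.387 and 0.322.

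Genes of the meninges had a median difference of 1.39 over 13 tested, 10 of them above 0 and none called. The summed level of the list overlapped, at 183 to 477 RPKM intracranially and 80.7 to 724 RPKM in the orbit and face. Crabp2, the member with the highest mean, was at 11.9 to 63.5 RPKM against 2.34 to 676 RPKM (-0.34 ± 1.07, SE, limma adjusted p = 0.901). Foxc1, a forkhead factor needed for meninges and anterior eye, was at 12.4 to 94.1 RPKM intracranially, and in the orbit and face at 82.8 RPKM in retro-orbital tumor 3 and 0.759 to 7.10 RPKM in the other 6. Its difference was 2.77 ± 0.84 (SE, limma adjusted p = 0.195), and 3.41 with an adjusted p of 0.0132 without that tumor. Foxc1 passed with no other tumor left out, at an adjusted p up to 0.389. Ptgds, the prostaglandin D synthase of arachnoid cells, was at 11.0 to 31.3 RPKM intracranially and at 51.5 RPKM in retro-orbital tumor 4, 5.94 in retro-orbital tumor 3 and 0.0876 to 2.06 in the rest (2.60 ± 0.80, limma adjusted p = 0.197). Of the tumors left out in turn, Ptgds passed only without retro-orbital tumor 4, at an adjusted p of 0.0262. Zic2, a zinc finger factor of the dorsal neural tube and meninges, had a difference of 1.26 ± 0.40 (adjusted p = 0.203).

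Hedgehog target and receptor genes were also above 0 in 8 of 10 cases, with a median of 0.63. Hhip, a secreted inhibitor that is itself induced by the pathway, was at 2.44, 6.17 and 24.2 RPKM in the meninges tumors, 3.02 in the vestibular tumor and 10.9 in the trigeminal tumor. It was at 3.21 RPKM in retro-orbital tumor 3 and 0.0899 to 0.369 RPKM in the other 6 orbit and face tumors (2.45 ± 0.50, SE, limma adjusted p = 0.08, and 0.0141 without retro-orbital tumor 3). Hhip passed with no other tumor left out, at an adjusted p up to 0.195. Ptch1, the receptor and a target of the pathway, and Smo, the signal transducer, had differences of 1.34 ± 0.49 and 0.62 ± 0.19 (SE, limma adjusted p = 0.254 and 0.205).

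Facial mesenchyme genes were split in direction, with 10 of 25 differences above 0 and a median of -0.22. Prrx1, a homeobox factor of craniofacial mesenchyme, was at 4.36 to 106 RPKM intracranially and 19.1 to 225 RPKM in the orbit and face (-2.43 ± 0.81, SE, limma adjusted p = 0.226). Mab21l1, which acts in eye and facial development, had higher levels in the intracranial tumors, at 3.19 to 67.9 RPKM against 0.877 to 11.8 RPKM (2.57 ± 0.69, adjusted p = 0.155). Crabp1, a retinoic acid binding protein of migrating crest, ranged from 1.40 to 139 RPKM and from 10.0 to 985 RPKM, too widely for its difference of -3.56 ± 1.33 to pass (SE, limma adjusted p = 0.26). Nr2f1, an orphan nuclear receptor of crest and brain, was highest in the vestibular tumor at 68.9 RPKM, with a difference of 1.51 ± 0.47 (limma adjusted p = 0.199).

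**Figure D5:**
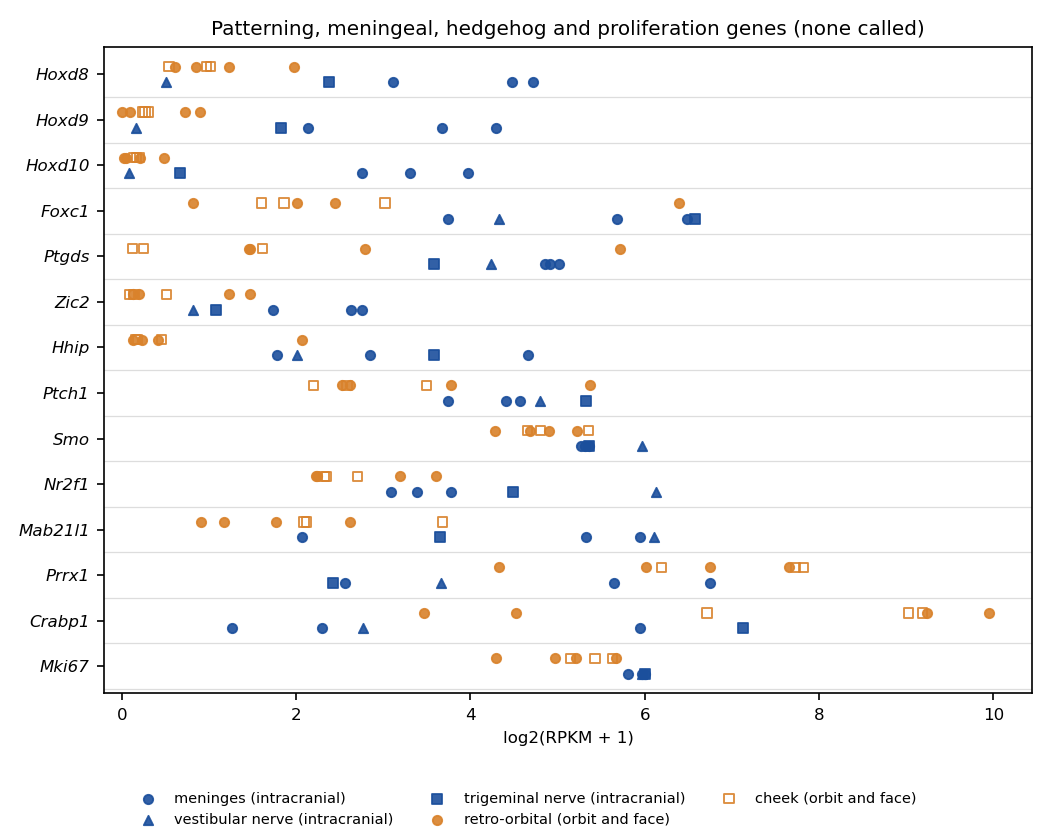
Log2(RPKM + 1) of 14 patterning, meningeal, hedgehog and proliferation genes with 1 point per tumor, none of them called. The Hoxd genes are high in the 3 meninges tumors and low in the vestibular tumor, and retro-orbital tumor 3 lies within the intracranial range for Foxc1 and Hhip and, at 40.4 RPKM, just above it for Ptch1.

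All 20 proliferation genes had a difference above 0, 19 of them above the median of all genes. Their median was 0.46 and none was called. Mki67, the Ki-67 antigen of cycling cells, was at 61.5, 63.1 and 55.2 RPKM in the meninges tumors, 61.6 in the vestibular tumor and 63.0 in the trigeminal tumor. The orbit and face tumors ranged from 18.6 through 35.9 to 49.8 RPKM. The intracranial values were close together and lay above all others, by a difference of 0.76 ± 0.21 (SE, limma adjusted p = 0.169). Tyms, the thymidylate synthase, and Aurkb, a mitotic kinase, overlapped between sides, with differences of 0.79 ± 0.27 and 0.70 ± 0.27 (limma adjusted p = 0.23 and 0.268).

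Among 21 genes of the SWI/SNF complexes, Ezh2 and Nf2, 18 differences were above 0 and 16 were above the median of all genes. The median was 0.36 and none was called. Smarca2, an alternative ATPase of the complex, was at 11.0 to 49.9 RPKM against 6.13 to 22.6 RPKM (1.16 ± 0.39, SE, limma adjusted p = 0.229). Macrophage and microglia genes had a median difference of -0.04 over 16. Cd163, a scavenger receptor of resident macrophages, was at 0.688 to 1.93 RPKM intracranially and 0.493 to 172 RPKM in the orbit and face (-2.87 ± 0.92, limma adjusted p = 0.208).

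The remaining lists also held no called gene. Their median differences were 0.08 for Hox cofactors (6 tested), 0.31 for brain regional factors (9), 0.33 for periocular factors (13), 0.27 for neural crest specifiers (19), 0.32 for the retinoic acid pathway (17) and 0.07 for subgroup markers that the study chose on these tumors (3). They were -0.32 for epidermis (10), -0.57 for glands (2), 0.21 for eye and pigment cells (6), 0.25 for bone and cartilage (10), 0.12 for lymphocytes (5), -0.06 for erythroid cells (1) and 0.14 for sex-linked genes (5).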

How the data were processed

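Gene-level RPKM of 12 tumors was used as deposited. The authors aligned reads to mm10 with STAR, assigned them to RefSeq genes by HTSeq and deposited RPKM, and neither the length nor the total used, nor the use of strand, is given in the sources used here. Fragment totals (13206168 to 57128422) were estimated with GENCODE M21 lengths, and fragment numbers are at the smallest length that made a gene's 12 values whole. Since RPKM is not a count, limma 3.58.1 (R 4.3.3, trended and robust prior) was run on log2(RPKM + 1), with a filter of 1 RPKM in 3 tumors and Benjamini-Hochberg adjustment at 0.05. Of 24060 rows, 27 hold a date in place of a symbol and were kept but not named. In data simulated for this comparison over 15043 genes, 44% of planted log2 changes of 1, 88% of 2, 96% of 3 and 100% of 4 were recovered, and 5.2% of calls were unchanged genes. The simulation drew tumors independently, whereas the fitted correlation within an identifier was 0.666, so these shares may not hold for the real tumors. Named are up to 15 called genes a direction by size, the other 5 called, lower genes filled up to 12 by p, and from 29 lists some of the members with the 3 smallest p or the highest level, picked after their values were seen. The comparison and lists were chosen with earlier results of these data known. Labels name no batch and do not say that tumors came from separate mice, so p-values measure the spread between these tumors. Pseudocount, filter, scaling, prior, weights, block, locations and each tumor were varied. Positions are from GENCODE M21 (GRCm38). Results of some genes are not reported here.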

Additional observations from a re-analysis of the deposited data

Results flagged for a closer look

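Over 54 groups (27 genes on 2 sides), a gap test for a tumor far from the rest of its side was past its 95% critical value 4 times, where chance alone gives about 2.7. Among the orbit and face tumors, retro-orbital tumor 3 was far above the others for Cplx1 (gap of 0.883 of the range, 0.990 RPKM) and Nsg2 (0.667, 1.23 RPKM). Cheek tumor 1 was apart for Resp18 (gap of 1, since the other 6 tumors were at 0), on a single fragment. Among the intracranial tumors, the vestibular tumor was far below the others for Ankrd28 (0.829, 17.0 RPKM).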

How the results depend on the processing

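The 29 genes called (20 higher, 9 lower) kept their direction under each alternative in which they were fitted. Their sides do not overlap, so leaving out tumors or locations could not reverse a direction. The number of calls moved widely. This number was 16 (9 higher) with a pseudocount of 0.1, 64 (53 higher) with no filter, 19 (12 higher) after quantile normalization, 14 (8 higher, 6 lower) with each tumor centred on its median and 45 (34 higher) without a trended or robust prior. It was 3682 (2674 higher, 1008 lower) with tumor weights, 112 (74 and 38) with the identifier as a block and 12 (7 and 5) with locations weighted equally. The meninges tumors alone against the orbit and face gave 21 calls (17 higher, 4 lower), and the vestibular and trigeminal tumors gave 1 (0 higher, 1 lower). Against retro-orbital tumors alone there was 1 call (0 higher, 1 lower), and against cheek tumors alone 78 (45 and 33). Chosen after the data were seen, leaving out the 4 tumors with an identifier on both sides gave 84 (56 and 28), averaging cheek tumors 2 and 3 gave 5 (2 and 3), and the identifier as a fixed term gave 0 (0 and 0), with 1435 genes at an unadjusted p under 0.05 and 2 residual degrees of freedom. Leaving out each tumor in turn gave 5 to 187 calls, 2 to 149 higher and 3 to 38 lower, and 163 genes without overlap became 168 to 396. The distance between minus within sides was 0.0442 to 0.0929 without each tumor, with p from 0.0108 to 0.0667 in the exact test, and 0.0317 to 0.131 under the other settings. The cause of these shifts was not tested. Labels share no replicate numbers across locations. Only 2 identifiers occur on both sides, so the identifier fits pair few tumors. RPKM values near 0 rest on few fragments, which limits genes such as Resp18, Cilp and Mir409.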
